A study of Homo sapiens with 10 samples.

Results

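T3, an MDA-MB-231 tumour resistant to the Smac mimetic SM-164, was compared with T8, the sensitive tumour whose whole expression profile lay nearest to it, across all named genes. The comparison used 4 of the 10 arrays of the study, 2 of T3 and 2 of T8, grouped by sample title. MDA-MB-231 is a human triple-negative breast cancer line, and SM-164 is a small molecule that mimics Smac, a natural antagonist of the inhibitor of apoptosis (IAP) proteins. In the study, xenografts of the line in immunodeficient SCID mice were given SM-164 intravenously at 5 mg/kg, 5 days a week for 2 weeks. Tumours regressed and later regrew, and RNA of tumour cells isolated from the regrown tumours was hybridised to Affymetrix arrays. T3 and a second tumour, T2, were labelled resistant to SM-164, T8 and T6 were labelled sensitive, and the parental cells grown in culture were also labelled sensitive, with 2 arrays per line. All 4 tumours had therefore grown in mice and regrown after the drug, while the parental cells were cultured under standard conditions. Each of T3 and T8 was 1 tumour, and the labels do not say whether its 2 arrays came from separate cultures, so every p-value below measures the spread between arrays and describes this pair of tumours, not resistance in general.

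Smac mimetics bind IAP proteins through the pocket that natural Smac occupies and cause cellular IAP1 to degrade itself. Loss of cellular IAPs stabilises NF-kB-inducing kinase, switches on NF-kB targets that include TNF, and lets a TNF receptor complex activate caspase-8. MDA-MB-231 is a much-used model of this response, because its cells make TNF and die by it once IAPs are gone.

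Expression levels below are the deposited log2 values of the robust multi-array average (RMA), 1 probe set per gene, and differences are T3 minus T8 on that log2 scale with the standard error (SE) of the fit. Of 19775 named genes, 14929 reached log2 5 on at least 2 arrays and were tested. Depth of an array is its signal, and the medians of the 10 arrays lay between 5.43 and 5.57, with 14096 to 14640 genes at log2 5 or more on each. Line markers fixed for MDA-MB-231 were present: all 13 were tested, and the lowest mean was 10.1. The pair was chosen for nearness, so nearness is given only as a description. Mean levels of T3 and T8 correlated across the tested genes at r = 0.993 (genes are not independent replicates), and 118 genes differed by log2 1 or more, against 284 for T3 and T6, 429 for T3 and T2, and 553 for T3 and parental cells. T8's own nearest line was T6, with 74 such genes. Replicate arrays correlated at 0.997 in T3 and 0.998 in T8, and arrays of T3 with arrays of T8 at 0.990 to 0.992.

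With limma fitted over all 10 arrays, 1 coefficient per line and Benjamini-Hochberg adjusted p under 0.05, 2750 genes (18.4% of those tested) differed between T3 and T8. T3 was higher for 696 (4.66%) and lower for 2054 (13.8%). Lower calls thus outnumbered higher ones over all genes, and the list counts below are to be read beside these shares. Most differences were small: 54 of the higher and 64 of the lower genes differed by log2 1 or more. The median of all tested genes was -0.03, and 25.3% of the calls were higher in T3. Repeated quantile normalisation of the deposited values, which took that median to 0.01, raised the higher share of the calls to 45.1%, and centring each array on its median gave 34%. Without T3 replicate 1 there were 515 higher and 871 lower genes, without T3 replicate 2 there were 383 and 1815, without T8 replicate 1 there were 343 and 891, and without T8 replicate 2 there were 316 and 1066. In each of the 2750 called genes both T3 arrays lay on the same side of both T8 arrays, as they did in 58.3% of all tested genes.

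The gene with the largest difference was SFTA3 (surfactant associated 3), which lies beside NKX2-1 on chromosome 14. SFTA3 had levels of 9.13 and 9.41 on the T3 arrays, against 4.91 and 4.67 on the T8 arrays, a difference of 4.48 ± 0.15 (limma adjusted p = 2.33e-10). Its means were 3.23 in T2, 3.31 in T6 and 3.20 in parental cells, so T3 was far above every other line and T8 stood next. NKX2-1 encodes the transcription factor TTF-1, which directs lung and thyroid genes. Looked up after the value of SFTA3 was seen, NKX2-1 had 7.55 and 7.97 in T3 and 6.11 and 6.35 in T8, a difference of 1.53 ± 0.16 (limma adjusted p = 1.27e-05). Its means of 5.94 in T2, 6.04 in T6 and 5.52 in parental cells again left T3 highest. On either side the differences were small. MIPOL1 differed by 0.41 ± 0.13 (limma adjusted p = 0.0391) and lost its call without T3 replicate 2 (0.28) or either T8 replicate (0.42 and 0.39), and PAX9, with 0.26, did not pass. MBIP, next to SFTA3, differed by 0.42 ± 0.14 (limma adjusted p = 0.0471) and lost its call in 8 alternatives, among them those without T3 replicate 2 (0.26) and without either T8 replicate (0.55 and 0.29).

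In RefSeq's table (GRCh38.p14) 1 of the 2 promoter windows of SFTA3 is also a window of NKX2-1, at chr14:36519507-36519806 on the minus strand. It is shown, by a choice made after values were seen, because both genes that share it rose together, with CACTCAAG in capitals, the core of the TTF-1 site known from the thyroglobulin promoter. The window runs from 250 bases before to 50 bases after the start.
SFTA3 and NKX2-1: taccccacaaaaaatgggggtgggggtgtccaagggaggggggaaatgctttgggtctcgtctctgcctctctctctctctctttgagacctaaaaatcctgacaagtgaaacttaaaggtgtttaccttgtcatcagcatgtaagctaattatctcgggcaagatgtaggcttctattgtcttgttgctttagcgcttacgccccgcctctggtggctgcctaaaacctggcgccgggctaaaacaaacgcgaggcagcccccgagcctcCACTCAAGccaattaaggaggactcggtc
CACTCAAG was searched on both strands and occurs in 253 of 34796 distinct promoter windows (0.73%). The match is a description of the letters and not evidence of a site.

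**Figure D1:**
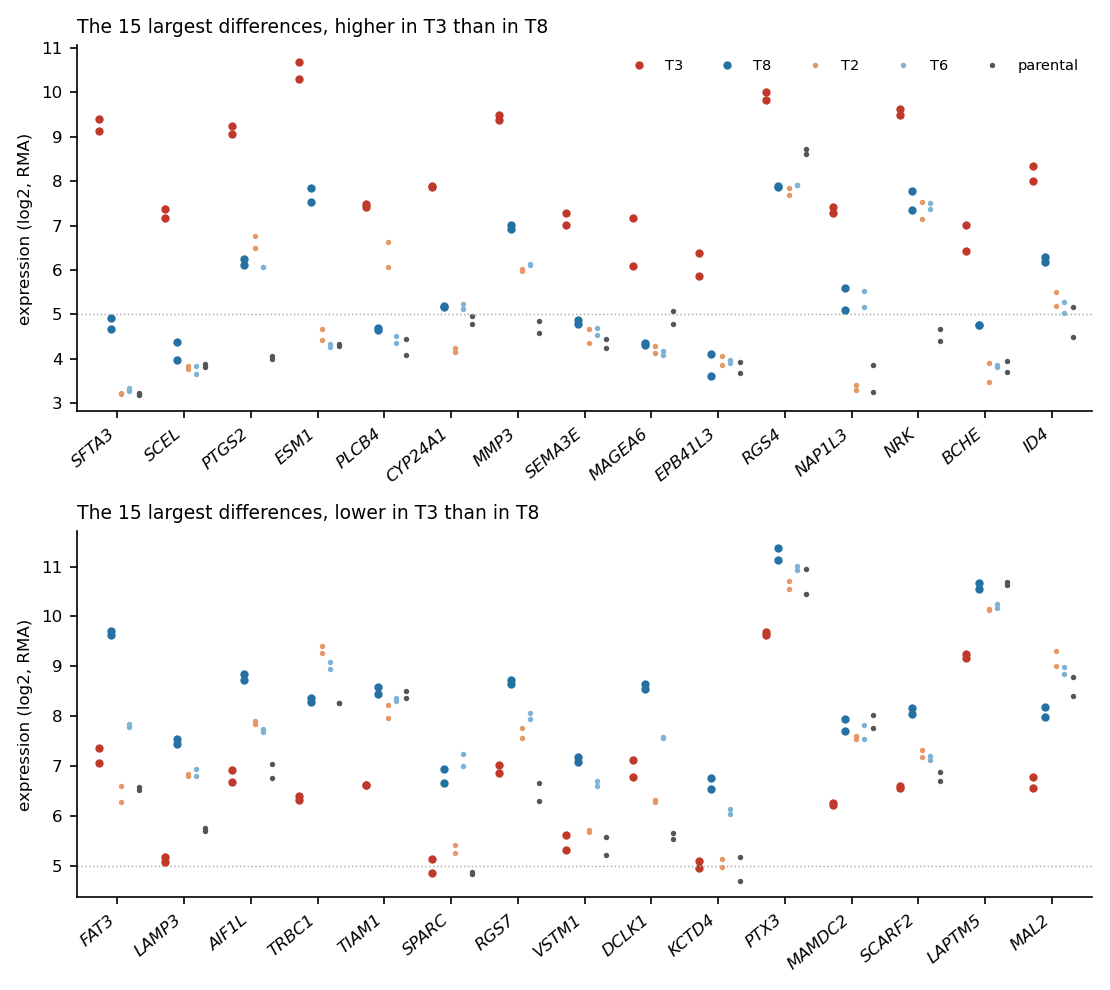
Log2 RMA level (vertical axis) of the 15 genes with the largest differences in each direction, in T3, T8, T2, T6 and parental cells, 1 point per array. The dotted line marks log2 5, the level a gene had to reach on 2 arrays to be tested. All 15 higher genes had their highest mean in T3, and for SFTA3 both T3 arrays stood above 9 while no array of any other line reached 5.

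PTGS2, which encodes cyclooxygenase-2, the inducible enzyme that makes prostaglandins from arachidonic acid, had 9.05 and 9.24 in T3 and 6.25 and 6.12 in T8. The difference was 2.96 ± 0.12 (limma adjusted p = 3.80e-09). Its second probe set gave 2.75. PLA2G4A, the cytosolic phospholipase A2 that frees arachidonic acid from membranes, had 6.31 and 6.54 in T3 and 5.01 and 4.88 in T8, a difference of 1.48 ± 0.17 (limma adjusted p = 3.48e-05). The enzyme and the supplier of its substrate were therefore both higher in T3. They are neighbours on chromosome 1, with 0 tested genes between them, and the tested genes on either side differed little: ODR4 by 0.28 ± 0.09, whose call was lost when any 1 of the 4 arrays was left out, and RGS2 by 0.09 ± 0.09. Of 17 tested genes of prostaglandin synthesis and reception, 3 were higher and 2 lower in T3. The third higher gene was PTGIR, the prostacyclin receptor (0.28 ± 0.09), whose call was lost when any 1 of the 4 arrays was left out. PTGER4, a receptor for prostaglandin E2, and PTGR1, which inactivates prostaglandins, were the lower ones, with differences of -0.81 ± 0.11 and -0.74 ± 0.06. In the other resistant and sensitive pair, T2 minus T6, PTGS2 was also higher (0.57) while PLA2G4A differed by -0.14 and was not called.

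The promoter windows of this pair are shown with TATAAA in capitals, the core of the classical box that positions transcription starts, searched on both strands. They are shown because both neighbours rose, and this choice was made after their values were seen. PTGS2 lies on the minus strand at chr1:186680374-186680673 and PLA2G4A on the plus strand at chr1:186828699-186828998 (RefSeq, GRCh38.p14).
PTGS2: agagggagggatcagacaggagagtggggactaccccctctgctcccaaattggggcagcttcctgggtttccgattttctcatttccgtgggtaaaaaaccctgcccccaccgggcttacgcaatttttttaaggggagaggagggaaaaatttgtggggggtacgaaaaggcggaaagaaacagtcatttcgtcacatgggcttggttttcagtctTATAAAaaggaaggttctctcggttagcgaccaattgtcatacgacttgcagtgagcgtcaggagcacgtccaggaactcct
PLA2G4A: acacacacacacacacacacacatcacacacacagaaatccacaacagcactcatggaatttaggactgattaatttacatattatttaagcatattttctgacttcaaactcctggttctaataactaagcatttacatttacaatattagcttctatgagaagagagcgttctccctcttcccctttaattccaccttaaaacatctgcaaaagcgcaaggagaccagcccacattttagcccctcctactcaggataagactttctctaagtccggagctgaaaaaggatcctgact
TATAAA is found in 11.6% of the 34796 windows. Of the 15 named genes with the largest increases, 12 have a window and 6 of these hold TATAAA, while 9 of the 15 with the largest decreases have a window and 1 holds it. A second motif, TGANTCA, the site of AP-1 factors, stands in 7.73% of all windows, in 2 of the 12 and in 2 of the 9. A named gene was counted if any of its windows held the motif, while the shares are per distinct window. The counts of genes and the shares of windows are therefore not like measures.

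The other genes with large increases encode proteins of different kinds, some secreted and some inside the cell. ESM1, a proteoglycan known from endothelial cells, had 10.29 and 10.68 in T3 and 7.85 and 7.53 in T8, a difference of 2.80 ± 0.15 (limma adjusted p = 2.23e-08). Its means were 4.56, 4.31 and 4.32 in T2, T6 and parental cells, so ESM1 was measured well above background in T3 and T8 alone. SCEL, a protein of the cornified envelope of keratinocytes, had 7.16 and 7.38 in T3 and 4.39 and 3.99 in T8. Its difference was 3.09 ± 0.16, and its T8 arrays were near background. CYP24A1, the enzyme that degrades active vitamin D, had 7.89 and 7.86 in T3 and 5.17 and 5.19 in T8 (2.69 ± 0.13). NRK, a kinase of the germinal centre kinase family, had 9.48 and 9.63 in T3 and 7.78 and 7.34 in T8 (1.99 ± 0.16), against a mean of 4.53 in parental cells. ID4, an inhibitor of basic helix-loop-helix factors known from mammary basal cells, had 8.01 and 8.34 in T3 and 6.29 and 6.18 in T8 (1.94 ± 0.20). SEMA3E, a secreted guidance factor, EPB41L3, a membrane scaffold protein, NAP1L3 and BCHE, butyrylcholinesterase, completed this group with differences of 2.33, 2.25, 2.01 and 1.97. Other probe sets of EPB41L3 gave larger increases of 3.29 and 3.31. MAGEA6, a cancer-testis antigen, had 6.09 and 7.16 in T3 and 4.35 and 4.32 in T8 (2.29 ± 0.24), and its probe set can also bind near-identical MAGEA copies.

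The genes with the largest decreases included FAT3, an atypical cadherin, with 7.05 and 7.37 in T3 and 9.71 and 9.63 in T8, a difference of -2.46 ± 0.13 (limma adjusted p = 1.44e-08). LAMP3, a lysosomal membrane protein, had 5.18 and 5.08 in T3 and 7.55 and 7.44 in T8 (-2.37 ± 0.11). TIAM1, an exchange factor that activates the small GTPase Rac, had 6.61 and 6.61 in T3 and 8.58 and 8.45 in T8, a difference of -1.90 ± 0.10 (limma adjusted p = 2.23e-08). Parental cells had 8.44, near T8, so TIAM1 was low in T3. Another probe set of TIAM1 gave a smaller decrease of -0.52. TRBC1, a constant segment of the T cell receptor beta chain, had 6.32 and 6.40 in T3 and 8.29 and 8.36 in T8 (-1.97 ± 0.09), but its probe set can also bind the near-identical TRBC2. Other probe sets of TRBC1 gave smaller decreases of -0.82 and -0.28. LAPTM5, a lysosomal protein best known from blood cells, had 9.25 and 9.16 in T3 and 10.56 and 10.68 in T8 (-1.42 ± 0.07), beside 10.66 in parental cells. PTX3, a secreted pattern recognition protein, had 9.64 and 9.69 in T3 and 11.37 and 11.14 in T8 (-1.59 ± 0.12). DCLK1, a microtubule-binding kinase, had 6.78 and 7.12 in T3 and 8.65 and 8.54 in T8 (-1.65 ± 0.12). Besides SPARC, which is described with the matrix genes, the 15 largest decreases among genes that reached log2 6 in T3 or T8 also held those of AIF1L (-1.97), RGS7 (-1.74), VSTM1 (-1.67), KCTD4 (-1.62), MAMDC2 (-1.59), SCARF2 (-1.52) and MAL2 (-1.41). A second probe set of AIF1L gave -0.28. For the 25 of these and of the genes named below from both tumour pairs that have other probe sets, 36 of 45 other probe sets had the same sign, and so did all 19 that reached log2 6.

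Matrix genes moved both ways. MMP3, the protease stromelysin-1, had 9.39 and 9.48 in T3 and 6.93 and 7.01 in T8, a difference of 2.46 ± 0.12 (limma adjusted p = 6.64e-09). MMP1, interstitial collagenase, was among the strongest signals of the arrays, with 13.91 and 14.02 in T3 and 13.42 and 13.45 in T8 (0.53 ± 0.07), against 9.11 in parental cells. Of 24 tested metalloproteinases and their inhibitors, 3 were higher and 5 lower in T3, and the lower count was 1 without T8 replicate 1, 2 without T3 replicate 1 and 3 without T3 replicate 2. TNC, the matricellular protein tenascin C, had 9.43 and 9.63 in T3 and 7.85 and 7.55 in T8 (1.82 ± 0.12). SPARC, a collagen-binding matricellular protein, went the other way, with 5.13 and 4.85 in T3 and 6.93 and 6.66 in T8, a difference of -1.81 ± 0.15 (limma adjusted p = 1.34e-06). CCN3 and SPOCK1 were higher in T3, by 1.02 ± 0.09 and 1.47 ± 0.14, and FSTL1 differed by -0.48 ± 0.06. In all, 4 of 19 tested matricellular genes were higher and 2 lower. Of 28 tested collagens and enzymes that modify them, 12 were lower (42.9%, against 13.8% of all genes) and 2 higher (7.14%, against 4.66%). The higher count was 1 without T8 replicate 2, and the median was -0.18. COL6A2, a chain of collagen VI, had 7.03 and 7.02 in T3 and 8.12 and 7.94 in T8 (-1.005 ± 0.09). COL18A1 and PLOD2, a lysyl hydroxylase, differed by -0.96 ± 0.08 and -0.79 ± 0.12, while LOX, which crosslinks collagen, was higher by 0.48 ± 0.10. COL6A1 differed by -0.85 ± 0.08, but by -0.10, not called, as a mean over its probe sets. Leaving out less specific probe sets gave 6 lower collagen genes.

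Enzymes of the plasminogen system and of hyaluronan also differed. PLAT, tissue plasminogen activator, had 12.55 and 12.63 in T3 and 11.41 and 11.36 in T8, a difference of 1.21 ± 0.07 (limma adjusted p = 3.66e-08). Of 11 tested serpins and plasminogen activators, 2 were higher and 5 lower. SERPINB9, an intracellular granzyme B inhibitor, differed by -0.88 ± 0.09, and SERPINI1, neuroserpin, which inhibits tissue plasminogen activator, by 0.84 ± 0.16. HAS2, which makes hyaluronan, had 8.10 and 8.11 in T3 and 9.33 and 9.29 in T8 (-1.21 ± 0.12), both above the 5.82 of parental cells. CD44, the main hyaluronan receptor, differed by 0.21 ± 0.07 and was not called without T3 replicate 2 or without either T8 replicate. Of 9 tested hyaluronan genes, 3 were lower and CD44 was the 1 that was higher. The lower count was 2 without T3 replicate 2 or without either T8 replicate, and 2 with centred medians.

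Genes of G protein signalling stood among the largest differences in both directions. PLCB4, a phospholipase C that Gq proteins activate, had 7.43 and 7.50 in T3 and 4.69 and 4.64 in T8, a difference of 2.80 ± 0.17 (limma adjusted p = 1.18e-07). RGS4, which shortens Gq and Gi signals, had 9.83 and 10.005 in T3 and 7.88 and 7.90 in T8 (2.03 ± 0.09, limma adjusted p = 6.59e-09). RGS7, from another branch of the same family, had 6.86 and 7.02 in T3 and 8.64 and 8.73 in T8. Of the 35 tested phospholipase C, G protein and RGS genes, 4 were higher and 9 lower. Without T3 replicate 1 or T8 replicate 1 there were 4 lower and without T8 replicate 2 there were 5, and the higher count was 2 without T3 replicate 2.

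Among growth factor and TGF-beta genes the ligands differed most. INHBA, the subunit of activin A, had 10.39 and 10.53 in T3 and 9.05 and 9.09 in T8, a difference of 1.39 ± 0.10 (limma adjusted p = 6.87e-07). EREG, an EGF receptor ligand, had 9.61 and 9.57 in T3 and 10.81 and 10.58 in T8, a difference of -1.11 ± 0.14 (limma adjusted p = 7.74e-05), with 7.75 in parental cells. In T3 activin's gene was therefore higher and the EGF receptor ligand lower. TGFBR2, the ligand-binding TGF-beta receptor, had 11.26 and 11.35 in T3 and 12.04 and 12.03 in T8 (-0.73 ± 0.06). ID2, a BMP target, differed by -0.80 ± 0.12, SMAD6, an inhibitory SMAD, by -0.81 ± 0.12, and PMEPA1, a TGF-beta target, by 0.33 ± 0.07. As a mean over its probe sets SMAD6 differed by -0.27 and was not called. Of 36 tested TGF-beta pathway genes, 5 were higher and 10 lower. The higher count was 3 without T3 replicate 2 and 2 without either T8 replicate, and the lower count was 6 without T8 replicate 1. Of 30 tested receptor tyrosine kinases, 3 were higher and 5 lower. ROR1, a receptor of Wnt5a, had 10.17 and 10.25 in T3 and 9.36 and 9.13 in T8 (0.97 ± 0.08), and EPHA4, an ephrin receptor, differed by 0.71 ± 0.10. The lower count was 1 without T8 replicate 1, 2 without T3 replicate 1 and 3 without T8 replicate 2.

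LRIG1 and its receptor partners were looked at whatever their difference. LRIG1 is a membrane protein that lowers the amount of ERBB receptors and MET. It had 6.70 and 6.95 in T3 and 7.92 and 7.68 in T8, a difference of -0.98 ± 0.14 (limma adjusted p = 0.000319), beside 7.51 in parental cells and a T2 minus T6 difference of -1.03. The call rested on the probe set with the highest mean: the other 3 gave 0.29, 0.04 and -0.25, and the mean over all 4 differed by -0.22 and was not called (limma adjusted p = 0.126). EGFR had 11.24 and 11.40 in T3 and 11.03 and 10.90 in T8 (0.35 ± 0.08, limma adjusted p = 0.00517). This call was lost as a mean over probe sets (0.09), without T3 replicate 2 (0.27) and without T8 replicate 2 (0.29). MET differed by -0.19 ± 0.08 (limma adjusted p = 0.114). In T2 minus T6, MET was called, a call lost without T2 replicate 2 or either T6 array, and (T3 minus T8) minus (T2 minus T6) was called too. Between T3 and T8, ERBB3 differed by 0.07 ± 0.12 (limma adjusted p = 0.726), and its probe sets had opposite signs. With less specific probe sets left out it was called lower, by -0.59 (limma adjusted p = 0.00935).

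Of the core genes of the response to SM-164 looked at whatever their difference, BIRC2, XIAP, TNF, CASP8, TNFRSF1A and CFLAR did not pass the test between T3 and T8. In T2 minus T6, BIRC2, XIAP and CFLAR were called, and for each (T3 minus T8) minus (T2 minus T6) was called too. Their T2 minus T6 calls were lost without T6 replicate 1, and those of BIRC2 and CFLAR also without T6 replicate 2. That of CFLAR was lost without T2 replicate 1 as well. For CFLAR the call between the pairs was lost without either T8 replicate or T6 replicate 2. BIRC2, cellular IAP1 and the direct target of SM-164, had 12.40 and 12.48 in T3 and 12.57 and 12.55 in T8, a difference of -0.12 ± 0.06 (limma adjusted p = 0.173). XIAP, the IAP that blocks caspases, differed by 0.18 ± 0.13 (limma adjusted p = 0.359). TNF had 5.09 and 4.73 in T3 and 4.71 and 4.68 in T8, all near log2 5, the level set for testing (0.22 ± 0.16, limma adjusted p = 0.377). CASP8, the initiator caspase of death receptors, had 8.11 and 8.22 in T3 and 8.62 and 8.41 in T8 (-0.35 ± 0.12, limma adjusted p = 0.0634). Fitted to the 4 arrays of T3 and T8 alone, the same CASP8 difference passed (limma adjusted p = 0.00845). TNFRSF1A, the receptor of TNF, and CFLAR, the inhibitor of caspase-8, differed by -0.15 ± 0.06 and 0.11 ± 0.07 (limma adjusted p = 0.129 and 0.303). A p that misses the threshold does not show that T3 and T8 had equal levels. Of 12 tested IAP proteins and antagonists 0 were higher and 1 lower, and of 12 tested caspase and apoptosome genes again 0 were higher and 1 lower. Both of these lower counts were 0 without T3 replicate 1 or either T8 replicate. At limma's unadjusted p under 0.05, 0 and 2 of the IAP list were higher and lower, and 0 and 3 of the caspase list.

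Around these targets, genes of death signalling did differ. TNFAIP3 encodes A20, which removes ubiquitin chains in the TNF receptor complex and dampens NF-kB. It had 9.40 and 9.58 in T3 and 8.83 and 8.78 in T8, a difference of 0.69 ± 0.09 (limma adjusted p = 0.000127), and 7.78 in parental cells. FAS, the receptor of FAS ligand, had 8.19 and 8.23 in T3 and 7.23 and 7.22 in T8 (0.99 ± 0.11, limma adjusted p = 1.96e-05). TNFSF15, a TNF-like ligand, had 8.78 and 8.88 in T3 and 7.88 and 7.70 in T8 (1.04 ± 0.11). Both a death receptor and a ligand were thus higher in T3. TNFRSF11B, osteoprotegerin, a decoy receptor that also binds TRAIL, had 5.94 and 5.92 in T3 and 6.92 and 7.11 in T8 (-1.09 ± 0.15). TNFRSF10B, a TRAIL receptor, and TNFRSF21 differed by -0.35 ± 0.08 and -0.40 ± 0.06, and TNFRSF10B lost its call without T3 replicate 1 (-0.25) or T8 replicate 1 (-0.35). TNFSF10, TRAIL itself, differed by 0.51 ± 0.10 but lost its call without T8 replicate 2 (0.40). Of 15 tested death ligands and receptors, 3 were higher and 6 lower, and the lower count was 2 without T3 replicate 1 or T8 replicate 1 and 3 without T8 replicate 2. Of 23 tested genes of the TNF receptor complex, 2 were higher, TNFAIP3 and MAP3K7, the kinase TAK1 (0.30 ± 0.10), and 5 lower, among them MLKL, which executes necroptosis (-0.44 ± 0.09), and TRAF3 (-0.30 ± 0.08). MAP3K7 lost its call when any 1 of the 4 arrays was left out, and TRAF3 without T3 replicate 1 or T8 replicate 1. These counts were 1 and 1 without T3 replicate 1 or T8 replicate 1, 1 and 4 without T3 replicate 2, and 1 and 2 without T8 replicate 2. In the BCL2 family, 1 of 18 tested genes was higher and 6 were lower. BID, which caspase-8 cleaves, had 8.94 and 8.99 in T3 and 9.49 and 9.65 in T8 (-0.61 ± 0.08), BIK differed by -0.52 ± 0.10, and BCL2A1 had 5.10 and 5.09 in T3 and 6.12 and 5.81 in T8 (-0.87 ± 0.14).

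NF-kB subunits and regulators that passed the test were lower in T3. Of 14 tested, 6 were lower (42.9%, against 13.8% of all genes), with a median of -0.15. Higher genes numbered 0, against 4.66% of all genes, and 0 also at limma's unadjusted p under 0.05. Among 14 genes, 0 higher calls says little beside that share. MAP3K14 encodes NF-kB-inducing kinase, the kinase that cellular IAPs degrade. It had 7.39 and 7.41 in T3 and 8.06 and 8.08 in T8, a difference of -0.67 ± 0.08 (limma adjusted p = 8.60e-05). NFKB2, the p100 subunit that this kinase processes, differed by -0.45 ± 0.09, and NFKBIE, an inhibitor, by -0.44 ± 0.08. The count was 3 without T8 replicate 2. NF-kB targets showed no single direction, with 5 of 28 tested higher and 7 lower. CXCL8, interleukin-8, had 10.40 and 10.55 in T3 and 9.81 and 9.78 in T8 (0.68 ± 0.08), and parental cells had 7.83. CSF1, a macrophage growth factor, was higher by 0.52 ± 0.09. IL6 and TNFAIP2 were lower, with differences of -0.60 ± 0.09 and -0.68 ± 0.09. Among 29 tested chemokines, interleukins and their receptors, 3 were higher and 7 lower. IL7R, the interleukin-7 receptor, had 9.44 and 9.45 in T3 and 10.54 and 10.63 in T8 (-1.14 ± 0.08), and IL11 differed by -0.85 ± 0.07. The lower count was 4 without T3 replicate 1 or T8 replicate 1.

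Interferon response genes that passed the test were lower in T3. Of 45 tested, 15 were lower (33.3%, against 13.8% of all genes) and 0 higher, with a median of -0.18, and 2 were higher at limma's unadjusted p under 0.05. Repeated quantile normalisation also gave 2 higher beside 15 lower. ISG15, a ubiquitin-like protein that interferon induces, had 11.44 and 11.38 in T3 and 12.03 and 12.18 in T8 (-0.70 ± 0.06), and its parental mean was 12.41. OASL and OAS2, of the 2'-5'-oligoadenylate synthetase family, had 8.22 and 8.10 and 6.58 and 6.69 in T3, against 8.91 and 8.96 and 7.45 and 7.47 in T8. MX1, a GTPase that blocks viruses, had 6.73 and 6.09 in T3 and 7.22 and 7.17 in T8 (-0.79 ± 0.16). The count of lower genes was 9 without T3 replicate 1 or T8 replicate 1. In T2 minus T6 the same list had 15 higher and 3 lower genes, and for 20 of its 45 genes the difference of the 2 differences was called. Without T6 replicate 2 these counts were 10, 1 and 13. Over all genes the shares were 3.08% higher and 6.38% lower in T2 minus T6, and 11.3% for the difference of the 2 differences. ISG15 differed by 0.55 and OASL by 0.80 in T2 minus T6. Of 20 tested genes of MHC class I and antigen processing, 7 were lower (35%, against 13.8% of all genes) and 0 higher (against 4.66%). At limma's unadjusted p under 0.05 these counts were 11 and 0. TAP1, which carries peptides to MHC class I, differed by -0.51 ± 0.07, and the immunoproteasome subunits PSMB8 and PSMB9 by -0.40 ± 0.07 and -0.40 ± 0.08. Of 12 tested MHC class II genes, CD74 (-0.57 ± 0.15) and HLA-DPA1 (-0.54 ± 0.15) were lower, and neither was called without T3 replicate 1 or without either T8 replicate. In T2 minus T6 the class I list had 0 higher and 2 lower genes, and the class II list 0 higher and 5 lower. All genes had 3.08% higher and 6.38% lower there. The MHC lists thus did not share the higher calls of the interferon list in T2 minus T6.

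**Figure D2:**
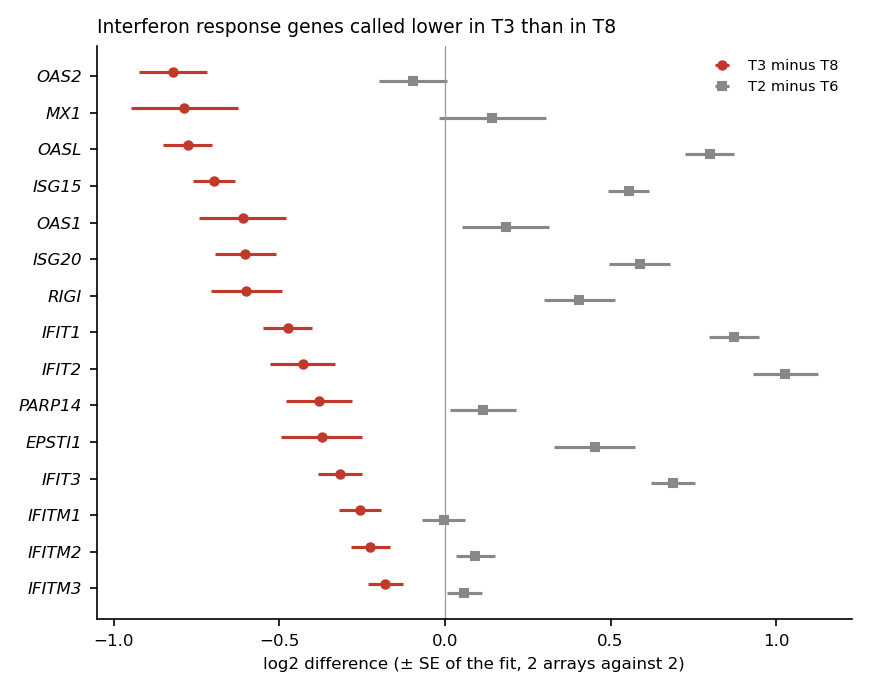
Differences (log2, horizontal axis, with the SE of the fit) of the 15 interferon response genes called lower in T3 than in T8, as T3 minus T8 (circles) and T2 minus T6 (squares). All 15 circles lie left of 0, while OASL and ISG15 lie right of 0 in T2 minus T6, at 0.80 and 0.55.

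Of 33 tested hypoxia and glycolysis genes, 12 were lower (36.4%, against 13.8% of all genes) and 2 higher (6.06%, against 4.66%). The higher count was 1 without T3 replicate 2 or T8 replicate 2, and the median was -0.08. Leaving out less specific probe sets gave 7 lower and 0 higher. ENO2, a glycolytic enolase, had 10.02 and 10.07 in T3 and 10.98 and 10.91 in T8, a difference of -0.90 ± 0.06 (limma adjusted p = 2.48e-07). PFKFB3, which raises the glycolytic activator fructose-2,6-bisphosphate, ADM, adrenomedullin, and SLC2A3, a glucose transporter, differed by -0.79 ± 0.10, -0.75 ± 0.07 and -0.64 ± 0.12. NDRG1 was higher by 0.25 ± 0.07. In T2 minus T6 the list had 7 higher and 1 lower genes, but 1 and 2 higher without T6 replicate 1 and replicate 2, and 2 without T2 replicate 2. The difference of the 2 differences was called for 17 of the 33 genes, beside 11.3% of all genes, and for 11 without T6 replicate 2. Of 28 tested Hippo pathway, YAP and TEAD genes, 12 were lower (42.9%, against 13.8% of all genes) and 3 higher (10.7%, against 4.66%). LATS2, the kinase that restrains YAP, FOXF2 and DLC1 differed by -0.67 ± 0.06, -0.90 ± 0.07 and -0.82 ± 0.07. The lower count was 5 without T3 replicate 1 or T8 replicate 1 and 7 without T8 replicate 2.

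Of 44 tested cell cycle and replication genes, 13 were lower and 3 higher, all by little. MCM3, of the replicative helicase, and PLK1, a mitotic kinase, differed by -0.41 ± 0.07 and -0.37 ± 0.07, and KIF2C, TTK and NUF2, which act at kinetochores, by 0.20 ± 0.06, 0.29 ± 0.09 and 0.29 ± 0.10. Repeated quantile normalisation gave 8 higher and 10 lower, and leaving out any 1 of the 4 arrays gave 0 higher. The lower count was 5 without T3 replicate 1 or T8 replicate 1 and 6 without T8 replicate 2. CCND2, a cyclin that starts the cell cycle, had 6.83 and 7.77 in T3 and 5.89 and 6.21 in T8 (1.25 ± 0.25), but 0.45 and no call as a mean over its probe sets. CDKN1C and CDKN1A, inhibitors of cyclin-dependent kinases, differed by -0.69 ± 0.09 and -0.27 ± 0.06. Of 11 tested CDK inhibitors and early cyclins, 1 was higher and 5 lower, and the lower count was 3 without T3 replicate 1 or T8 replicate 1.

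Markers of epithelial and mesenchymal state moved both ways. Of 27 tested epithelial markers, 6 were higher and 5 lower, and the lower count was 2 without T3 replicate 1 or T8 replicate 1 and 3 without T8 replicate 2. KRT19, a keratin of simple epithelia, had 12.91 and 13.01 in T3 and 12.25 and 12.22 in T8 (0.72 ± 0.06). KRT8, another, differed by -0.30 ± 0.06, and MAL2, an apical transport protein, had 6.57 and 6.78 in T3 and 8.18 and 7.99 in T8. Of 19 tested mesenchymal markers, 5 were higher and 2 lower, and the higher count was 3 without T8 replicate 2. SNAI2, the transcription factor Slug, differed by 0.65 ± 0.09. S100A4, a calcium-binding protein tied to motility, had 10.47 and 10.51 in T3 and 11.47 and 11.52 in T8 (-1.01 ± 0.07), both below the 13.08 of parental cells. Among 19 tested cadherins, 2 were higher and 4 lower. CDH11, a mesenchymal cadherin, had 10.81 and 10.89 in T3 and 9.64 and 9.60 in T8, a difference of 1.23 ± 0.08 (limma adjusted p = 1.50e-07). The higher count was 1 without any 1 of the 4 arrays.

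**Figure D3:**
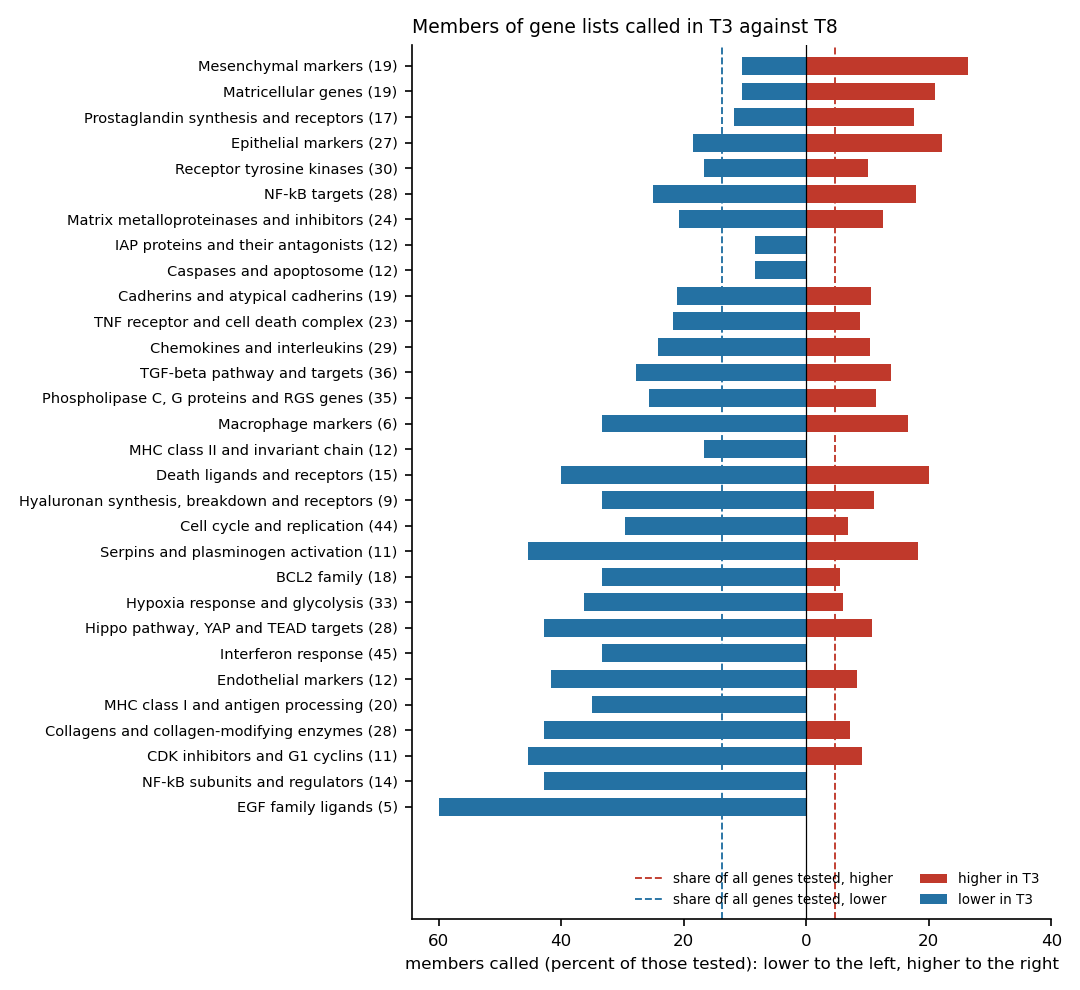
Share of the tested members of each gene list (number tested in parentheses) called higher in T3 than in T8 (bars to the right) and lower (bars to the left), in percent. Dashed lines give the shares among all tested genes, 4.66% higher and 13.8% lower, beside which the interferon list reached 33.3% lower.

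T2 and T6, a resistant and a sensitive tumour that share no array with T3 and T8, were compared in the same fit. T2 minus T6 had 1412 calls (9.46%), 460 higher (3.08%) and 952 lower (6.38%), and 777 calls without T2 replicate 1, and 449 and 428 without T6 replicate 1 and replicate 2. Of the 696 genes higher in T3 than in T8, 45 were also higher in T2 than in T6, which is 6.47% of the 696 and 9.78% of the 460. More of them, 91 or 13.1%, were lower in T2. Of the 2054 lower genes, 226 were also lower in T2 (11% of the 2054 and 23.7% of the 952) and 117 were higher there (5.70%). These shared counts moved with single arrays. The 45 genes higher in both were 25 and 28 without T8 replicate 1 and replicate 2, and 18 and 17 without T6 replicate 1 and replicate 2. The 226 lower in both were 131 without T3 replicate 1, 112 and 127 without T8 replicate 1 and replicate 2, 111 without T2 replicate 1, and 79 and 63 without T6 replicate 1 and replicate 2. The 91 were 51 without T3 replicate 2, 49 and 40 without T8 replicate 1 and replicate 2, 59 without T2 replicate 1, and 40 and 39 without T6 replicate 1 and replicate 2. The 117 were 73 without T3 replicate 1, 60 and 67 without T8 replicate 1 and replicate 2, 72 without T2 replicate 2, and 37 and 44 without T6 replicate 1 and replicate 2. The difference of the 2 differences was called for 1691 genes (11.3%), and for 1032 and 1049 without T8 replicate 1 and replicate 2, and 947 and 935 without T6 replicate 1 and replicate 2. T3 minus T8 thus shared 271 calls in the same direction with T2 minus T6, 208 in the opposite direction, and 2271 were called in T3 minus T8 alone, which does not by itself show that they differ between the pairs.

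Genes that passed in both pairs in the same direction were led by PTGS2, PLCB4, GKN2, SPOCK1, ARHGAP20 and DNER among the higher ones. PLCB4 differed by 2.80 in T3 minus T8 and 1.92 in T2 minus T6, and SPOCK1, a proteoglycan, by 1.47 and 1.26. ARHGAP20 had 1.14 and 1.08. GKN2, a protein of the gastric mucosa, had 1.88 and 0.81, and DNER, a Notch ligand, had 1.102 and 0.48. The lower ones were led by FAT3 (-2.46 and -1.37), CDH5, SPARC, VSTM1 (-1.67 and -0.94), DCLK1 (-1.65 and -1.27) and KCTD4 (-1.62 and -1.03). SPARC moved by nearly the same amount in both, -1.81 in T3 minus T8 and -1.78 in T2 minus T6. Its means were 4.99 in T3 and 6.80 in T8, 5.34 in T2 and 7.12 in T6, and 4.85 in parental cells, so the resistant tumours and the parental cells were all low. CDH5, an endothelial cadherin, differed by -1.81 and -0.72 at levels that stayed under log2 6 in every line. Their calls in T3 minus T8 held when any 1 array of the 4 tumours was left out, but some in T2 minus T6 did not: that of DNER was lost without any 1 T2 or T6 array, that of PTGS2 without T2 replicate 2 or either T6 array, that of GKN2 without T2 replicate 1 or T6 replicate 1, and that of CDH5 without T6 replicate 2.

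Other genes passed in both pairs in opposite directions. NAP1L3, a nucleosome assembly protein, had 2.01 in T3 minus T8 and -1.99 in T2 minus T6. TNC had 1.82 and -1.09, INHBA 1.39 and -1.20, CYP24A1 2.69 and -0.98, and ADGRF5, an adhesion G protein-coupled receptor, 1.26 and -1.43. INHBA means were 10.46 in T3 and 9.07 in T8, 7.76 in T2 and 8.96 in T6, and 6.53 in parental cells. Among genes lower in T3, IL7R had -1.14 and 0.44, GJB2, a gap junction protein, -1.18 and 0.55, SNCAIP, which binds alpha-synuclein, -1.103 and 0.64, and BCL2A1 -0.87 and 1.22. TRBC1 had -1.97 and 0.32. SHANK2, a synaptic scaffold, had -1.28 and 0.68, but -0.11 and no call in T3 minus T8 as a mean over its probe sets. CAVIN2, a coat protein of caveolae, had 1.28 and -0.37. In T2 minus T6 the call of CAVIN2 was lost without T2 replicate 1 or any 1 T6 or T8 array, that of TRBC1 without T2 replicate 2 or any 1 T6 or T8 array, that of SNCAIP without T2 replicate 2 or either T6 array, and that of GJB2 without T6 replicate 1.

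**Figure D4:**
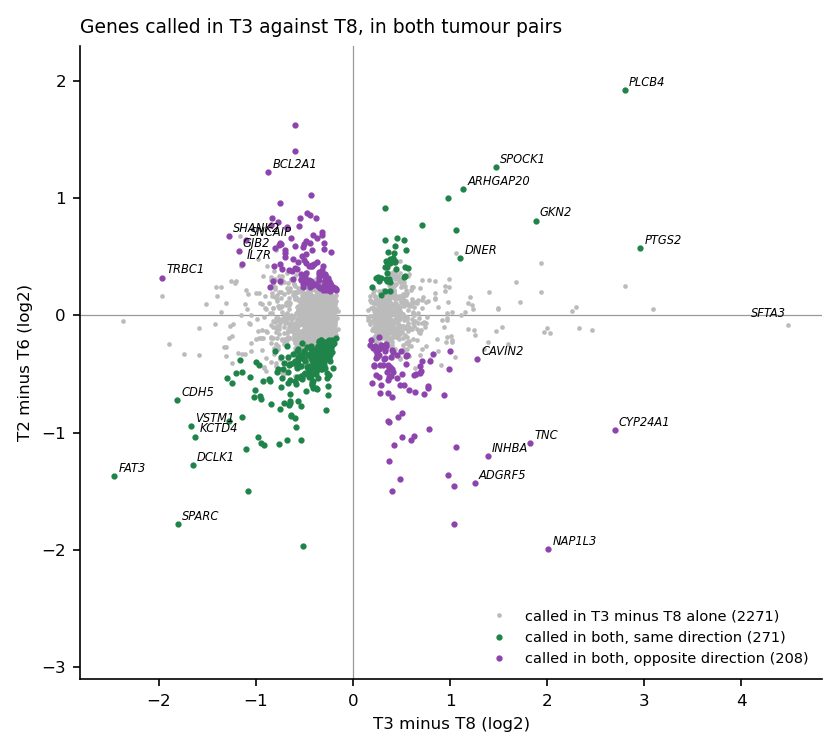
T3 minus T8 (log2, horizontal axis) against T2 minus T6 (log2, vertical axis) for the 2750 genes called in T3 minus T8, 1 point per gene. Of these, 271 were called in the same direction in both pairs (green), 208 in opposite directions (purple) and 2271 in T3 minus T8 alone (grey). PLCB4 and SPARC stand out in the same-direction quadrants, and NAP1L3 and TNC in the opposite ones.

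The levels of the other lines were set beside these differences as a description. The genes were chosen for a T3 level above or below that of T8, which by itself favours T3 as the highest or lowest line. Of the 54 genes higher in T3 by log2 1 or more, T3 had the highest mean of the 5 lines for 51, and T8 came next for 25. The parental mean was nearer to T8 than to T3 for 48 of the 54, and for 459 of all 696. T8 means were under log2 6 for 24 of the 54 and for 9 of the 15 largest increases, where the order of low levels says little. Among the 15 largest increases, T3 was highest for all 15 and T8 was next for 9. SFTA3, PTGS2, ESM1, MMP3 and NRK are examples: PTGS2 means were 9.14 in T3, 6.19 in T8 and 4.03 in parental cells, and those of MMP3 were 9.43, 6.97 and 4.72. The decreases divided more evenly. Of the 64 genes lower by log2 1 or more, T3 had the lowest mean for 35 and T8 the highest for 29, and the parental mean was nearer to T8 for 29 and nearer to T3 for 35. Comparisons with parental cells share the parental arrays, so these values stand side by side and their overlap was not counted. RGS4 was 1 of the increases in which T8 did not come next, with 9.92 in T3, 7.89 in T8 and 8.67 in parental cells.

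Markers of other cells that tumour tissue could carry were summed beside these results. The labels give tumour cells isolated from xenografts, and mouse RNA would be read only where it matches human probes. Summed over 6 macrophage markers on the linear scale, T3 had 822 to 897 and T8 1741 to 1898, and 4 of the 6 were under log2 6 in both. LAPTM5 made most of this sum, and parental cells, which were cultured alone, had 10.66. Summed over 12 endothelial markers, T3 had 3063 to 3121 and T8 4211 to 4257, with 6 under log2 6 in both. ROBO4, a receptor known from endothelium, was the strongest mover that was well measured, with 9.63 and 9.76 in T3 and 10.61 and 10.51 in T8 (-0.86 ± 0.08), and PECAM1 differed by 0.51 ± 0.12 but lost its call without T3 replicate 1 or T8 replicate 1. Fibroblast markers summed to 1565 to 1602 in T3 and 1542 to 1561 in T8, and blood cell markers to 435 to 492 in T3 and 396 to 409 in T8. Fewer cells of a type and less RNA per cell cannot be told apart in these samples, and the part of other cells in the differences was not tested. Of the contrast markers, CDH1 had means of 4.51 in T3 and 4.86 in T8, near the level set for testing. Other contrast markers lay above that level in both tumours. EPCAM had means of 8.44 in T3 and 8.57 in T8, ERBB2 8.83 and 9.003, and ESR1 6.70 and 6.56. PGR was not among the tested genes.

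Position in the genome, which played no role in choosing the pair, was described after values were seen and has no test. Along the RefSeq gene order (14893 tested genes with a position), the median of 41 neighbouring genes passed 0.15 upward in 6 stretches of 30 genes or more and downward in 7. The 6 upward stretches held 513 tested genes, of which 164 (32%) were higher in T3 and 8 lower. The 7 downward stretches held 461, of which 182 (39.5%) were lower and 7 higher. Without 1 array the 164 were 63 to 134, lowest without T8 replicate 2, 70 without T3 replicate 2 and 91 without T8 replicate 1, and the 182 were 90 to 170, lowest without T3 replicate 1 and 97 and 104 without T8 replicate 1 and replicate 2. Since the stretches were found from these differences, those shares describe them and support nothing. Outside them, 3.80% of 13919 genes were higher and 13.4% lower.

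The longest upward stretch ran along the long arm of chromosome 6 from TENT5A to MOXD1. Of its 143 tested genes, 59 were higher in T3 and 3 lower, with a median of 0.27, against -0.06 in T2 minus T6. Each array's median deviation from the parental mean over these genes was 0.38 and 0.54 in T3 and 0.28 and 0.18 in T8, while T2 had 0.02 and 0.09 and T6 0.12 and 0.09. T3 was highest and T8 second on every array. The higher count was 29 to 50 when 1 of the 4 arrays was left out, lowest without T8 replicate 2, 32 without T3 replicate 2 and 37 without T8 replicate 1. From VNN3P to PRR18, further along, 34 of 109 genes were higher, and this count was 13 without T3 replicate 2, 19 without T8 replicate 1 and 11 without T8 replicate 2. Before IBTK on the same chromosome the picture was different: of 501 tested genes 17 were higher and 103 (20.6%) lower, and the count of lower genes was 48, 52 and 60 without T3 replicate 1, T8 replicate 1 and T8 replicate 2. TNFAIP3, MAP3K7 and POU3F2 lie in these stretches. POU3F2, a transcription factor of neural and melanocytic cells, had 6.31 and 6.62 in T3 and 5.01 and 4.56 in T8 (1.68 ± 0.17), and WAKMAR2, a long noncoding RNA next to TNFAIP3, differed by 1.39 ± 0.20. HDAC2, a histone deacetylase, and LAMA4, a laminin chain, differed by 0.41 ± 0.08 and 0.60 ± 0.15. As a mean over its probe sets HDAC2 differed by 0.17 and was not called, and LAMA4 lost its call without T3 replicate 2 or T8 replicate 1.

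The densest downward stretch lay on the short arm of chromosome 10 from UCN3 to ODAD2, where 47 of 83 tested genes were lower and 3 higher, with a median of -0.30. Median deviations from parental cells were -0.14 and -0.09 on the T3 arrays and 0.19 and 0.16 on the T8 arrays, so the sides of parental cells were opposite. The lower count was 26 without T3 replicate 1 or T8 replicate 1. GATA3, the transcription factor of luminal breast cells, lies there, with 7.58 and 7.80 in T3 and 8.73 and 8.37 in T8 (-0.86 ± 0.13), though it was not called (-0.49) when less specific probe sets were left out. On chromosome 21 from BACH1 to HLCS, 22 of 49 genes were lower, with medians of -0.17 and -0.20 in T3 and 0.01 and -0.01 in T8. That count was 12 without T3 replicate 1 and 13 without either T8 replicate. This stretch was also low in T2, with medians of -0.21 and -0.16, and T6 had -0.10 and -0.08. The median of T2 minus T6 over it was -0.13. DOP1B (-0.91 ± 0.15), CBR3, a carbonyl reductase (-0.67 ± 0.07), and RCAN1, an inhibitor of calcineurin (-0.62 ± 0.08), were lower in T3 than in T8. On chromosome X from PUDP to AP1S2, 13 of 32 were lower, with -0.52 and -0.47 in T3 and -0.24 and -0.19 in T8, and the count was 7 without T3 replicate 1 or T8 replicate 1. Over whole chromosomes, the median difference was lowest on chromosome 21 (-0.17) and chromosome 9 (-0.16) and highest on chromosome 4 (0.11), chromosome 18 (0.10) and chromosome 1 (0.08). DNA was not measured in these samples, and what lies behind the stretches was not tested.

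**Figure D5:**
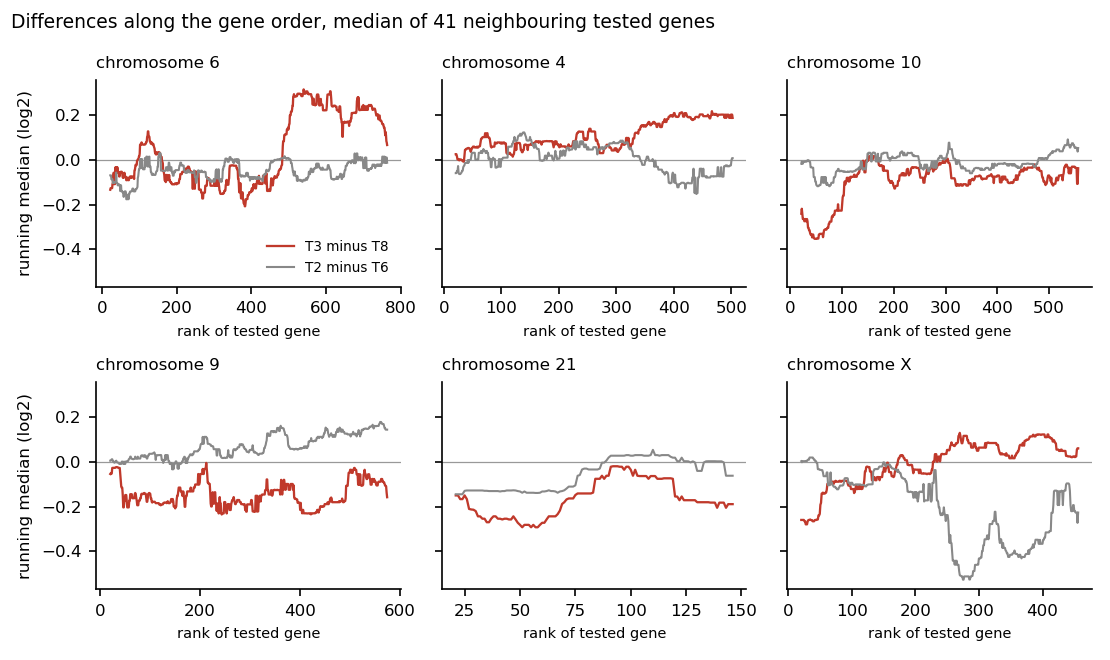
Running median of the log2 difference over 41 neighbouring tested genes (vertical axis) along the rank of tested genes (horizontal axis). T3 minus T8 (coloured) and T2 minus T6 (grey) are drawn for chromosomes 6, 4, 10, 9, 21 and X. Stretches on chromosomes 1, 12 and 18 are not drawn. On chromosome 6 the T3 minus T8 line leaves 0 upward near IBTK and stays above it over 143 and then 109 genes. The T2 minus T6 medians over those stretches were -0.064 and -0.015. Earlier on the chromosome, at MCUR1, the T2 minus T6 line was at -0.18.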

How the data were processed

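The series holds 10 Affymetrix expression arrays, 2 each of tumours T3, T8, T2 and T6 and of parental MDA-MB-231 cells, grouped by sample title. The authors deposited log2 values per probe set, and per the submitters' processing notes affy, RMA and limma were used (versions and settings are not given in the sources used here). Per the labels' protocols, biotinylated cRNA was made from total RNA. Of 54675 probe sets, 62 controls, 1801 with several symbols and 11721 with none were left out, and 41091 with 1 symbol were used. For 41037 of these the symbol was matched or updated through the Entrez identifier. Each of 19775 genes was represented by 1 probe set, the brightest by its 10-array mean, and 14929 genes with log2 5 or more on at least 2 arrays were tested.

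limma 3.58.1 (R 4.3.3) was fitted with 1 coefficient per line over all 10 arrays (5 residual degrees of freedom), eBayes with a trend, and Benjamini-Hochberg adjustment over all tested genes, and its functions were tested on simulated data. Contrasts were T3 minus T8, T2 minus T6 and their difference. With 2 arrays a side and 1 tumour per side, precision is limited by the number of arrays. Alternatives changed the normalisation, filter, choice of probe set, trend, samples fitted, a replicate block and each array in turn. Named genes were the 15 largest called differences per direction that reached log2 6, 12 preset genes of which 2 were not analysed here, up to 4 called members per list and direction, the 6 largest per direction shared with or opposed in T2 minus T6, and called genes of runs of 15 neighbours with extreme medians. Neighbours of SFTA3 and PTGS2 and the promoters shown were chosen after values were seen. The pair, lists and tests were chosen with earlier results of these data known. Stretches of the gene order use RefSeq positions, a window of 41 genes, a median past 0.15 and a minimum of 30 genes.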

Additional observations from a re-analysis of the deposited data

Results flagged for a closer look

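The results here differed between the pair T3 and T8 and the pair T2 and T6 by a test of the difference of their differences, (T3 minus T8) minus (T2 minus T6), in limma at adjusted p under 0.05. This test called 1691 of 14929 genes (11.3%). Among the named genes the difference of the differences, on the log2 scale, was 4.01 for NAP1L3, 3.68 for CYP24A1, 2.91 for TNC, 2.68 for ADGRF5, 2.59 for INHBA and 1.65 for CAVIN2, which were higher in T3 than in T8 and lower in T2 than in T6. It was -2.29 for TRBC1, -2.10 for BCL2A1, -1.96 for SHANK2, -1.74 for SNCAIP, -1.73 for GJB2 and -1.58 for IL7R, with the opposite signs. Genes that moved the same way in both pairs also differed in size: PTGS2 by 2.39, GKN2 by 1.07, PLCB4 by 0.88, FAT3 by -1.09, CDH5 by -1.09 and VSTM1 by -0.73. Of the preset genes, BIRC2, XIAP, CFLAR and MET, not called in T3 minus T8, were called by this test and in T2 minus T6. The call of PLCB4 was lost when any 1 array of the 4 tumours other than T2 replicate 2 was left out, and that of VSTM1 when any 1 other than T3 replicate 1 and T2 replicate 1 was left out. Each line is 1 tumour, so a difference between the pairs cannot be told apart from a difference between single tumours. No sample could be tested for standing apart from its group, since each group had 2 arrays.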

How the results depend on the processing

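The 696 higher genes became 1347 with repeated quantile normalisation, and the 2054 lower genes became 1311 with centred medians. The difference of the differences was called for 1123 genes when less specific probe sets were left out, and T2 minus T6 for 886 genes with no trend. Leaving out 1 T3 or T8 array gave 1234 to 2198 calls in T3 minus T8, 316 to 515 higher and 871 to 1815 lower, and leaving out 1 T2 or T6 array gave 556 to 842 higher and 1677 to 2344 lower. Over the omissions of any 1 of the 8 tumour arrays there were 428 to 1631 calls in T2 minus T6 and 935 to 1710 for the difference of the differences. Among gene lists, leaving out less specific probe sets gave 2 lower TGF-beta genes, 2 lower NF-kB targets, 3 lower NF-kB subunits and regulators, 3 lower MHC class I genes, 4 lower chemokines and interleukins and 8 lower cell cycle genes, and centred medians gave 1 lower gene of the TNF receptor and cell death complex, 7 of the Hippo pathway and 6 of the cell cycle. Replicate numbers did not pair T3 with T8, since deviations of their same-numbered arrays correlated at -0.357. Those of other lines correlated at -0.387 to 0.502, so the arrays were not free of shared deviations. T3 and T2 had 0.502 and T8 and parental cells 0.308, while T3 and parental cells had -0.36 and T2 and parental cells -0.387. Unlike numbering was fitted for T3 and T8 alone, by exchanging the T8 replicate numbers (the crossed block below), and not over all lines. The calls reported above treat the arrays as independent. With the replicate number as a block there were 2526 calls. Within the T3 and T8 arrays alone the block gave 2457 calls and, crossed, a setting added after seeing the data, 4763. Of 1977 pairs of a named gene and an alternative, 1861 kept direction and side of the threshold, 108 lost the call, 4 gained one and 4 turned sign, and for 126 of 156 named genes no alternative changed the call or the sign. ERBB3 turned sign as a mean over probe sets (-0.19), with less specific probe sets left out (-0.59, limma adjusted p = 0.00935, a call) and over the omissions of 1 array (-0.0031 to 0.15). It was not called as reported, as a mean over probe sets or without any 1 T3 or T8 array. The cause of these changes was not tested. Genes near log2 5 have little signal over background, and 2 arrays a line limit the precision of every difference.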

Other observations

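Further gene groups add to the description of T3 and T8. Of 18 tested retinoid receptors and genes of retinol metabolism, 2 were higher and 2 lower in T3 (1 lower when any 1 of the 4 arrays was left out). RARB, the retinoic acid receptor beta, which retinoic acid itself induces, had 6.85 and 7.75 in T3 and 5.30 and 5.44 in T8, a difference of 1.93 ± 0.21 on the log2 scale (limma adjusted p = 1.95e-05). The lower T3 array still stood above both T8 arrays, and T2 and T6 had means of 5.53 and 5.09. SDR16C5, which oxidises retinol, had 8.27 and 8.34 in T3 and 7.36 and 7.13 in T8 (1.06 ± 0.12). PLAAT4, a retinoid-inducible tumour suppressor, had 7.59 and 7.63 in T3 and 8.42 and 8.44 in T8 (-0.82 ± 0.09), both below the 10.47 of parental cells.

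Of 24 tested integrins and laminins, 3 were higher and 5 lower. ITGB2, the leukocyte integrin beta chain, had 7.84 and 7.996 in T3 and 9.12 and 8.83 in T8 (-1.06 ± 0.11), and ITGB4, the integrin beta chain of hemidesmosomes, had 8.05 and 7.95 in T3 and 8.84 and 8.84 in T8 (-0.84 ± 0.08). LAMB1, a laminin chain, differed by -0.75 ± 0.09. Without T3 replicate 1 or T8 replicate 1 there were 3 lower, and the higher count was 1 without T3 replicate 2 or T8 replicate 1. Of 33 tested genes described in metastatic sublines of MDA-MB-231, 5 were higher and 10 lower. KISS1, the kisspeptin precursor known as a metastasis suppressor, had 11.08 and 11.21 in T3 and 12.08 and 12.13 in T8 (-0.96 ± 0.07), against 7.94 in parental cells, and KYNU, kynureninase, had 7.42 and 7.50 in T3 and 8.71 and 8.70 in T8 (-1.25 ± 0.09). OPN3, an opsin, was higher, with 9.31 and 9.43 in T3 and 8.46 and 8.55 in T8 (0.87 ± 0.09). Of 9 tested drug efflux transporters 0 passed in either direction, and limma's unadjusted p under 0.05 gave 0 higher and 1 lower. The 2 with the largest differences were ABCC4 (-0.29 ± 0.10, limma adjusted p = 0.0574) and ABCA1 (-0.23 ± 0.16, limma adjusted p = 0.365), and ABCC4 passed when the 4 arrays of T3 and T8 were fitted alone (limma adjusted p = 0.0110).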
